A study of Mus musculus with 2 samples.

Results

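The proteasome is the large protease that degrades ubiquitin-tagged proteins. Its genes were read in small peritoneal macrophages, which live in the abdominal cavity, from mice with endotoxemia. The members are the protein-coding genes whose GENCODE M21 symbol begins with Psma, Psmb, Psmc, Psmd, Psme, Psmf or Psmg. They number 50 of the 55487 genes in the count table. One of them, Psmc3ip, is known as a partner protein in meiotic recombination and not as a subunit, and it is kept in the counts because the symbol takes it in.

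Both groups were sorted cells of male SWISS mice (outbred, 5 weeks old) that had received 20 mg/kg of Escherichia coli lipopolysaccharide (LPS) into the peritoneum. Both received 30 mL/kg of saline under the skin 6 h later and were killed 22 h after LPS. The LPS library was made from 102283 cells pooled from 7 mice. The LPS+LCC-12 library was made from 66967 cells pooled from 8 mice that also received 0.3 mg/kg of LCC-12, a compound known to bind copper in mitochondria, 6 h after LPS. Mice without LPS were not analysed here. Each group is a single library, so no difference was tested against variation between mice. The intervals given are 95% intervals for counting error only, and they take each read as independent. In such bulk RNA, fewer cells of a type and less RNA per cell cannot be told apart.

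As background, the core of the proteasome, the 20S particle, is a stack of alpha and beta rings, and its proteolytic sites sit on the beta subunits encoded by Psmb5, Psmb6 and Psmb7. A 19S cap with a ring of ATPases recognises ubiquitin, unfolds the substrate and feeds it in. Interferon induces the alternative catalytic subunits Psmb8, Psmb9 and Psmb10, which take the places of Psmb5, Psmb6 and Psmb7 in newly assembled immunoproteasomes, and the PA28 activator made of Psme1 and Psme2. In macrophages these forms are known for producing peptides for MHC class I.

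All 11 macrophage markers had 50 or more counts in at least 1 library, and their summed level was 8702 CPM (counts scaled to the size of the library) with LPS and 10135 CPM with LPS+LCC-12. The markers went both ways, with 5 of 11 below a log2 ratio of 0, and without Lyz2 they summed to 5653 and 5627 CPM. Deposited counts summed to 50618409 and 47721888. Markers of other cells differed between the libraries. The 15 neutrophil markers summed to 10164.5 CPM with LPS and 3837 CPM with LPS+LCC-12, with 12 of 15 at least 1.5-fold lower. Of 11 monocyte markers with 50 or more counts, 10 were below a log2 ratio of 0 and 7 were at least 1.5-fold lower. The 12 listed summed to 9532 and 14807 CPM, of which Fn1 made up 3114 and 10656 CPM, and without Fn1 they summed to 6418 and 4151 CPM. None of the neutrophil or monocyte markers was at 0. Mast cell markers summed to 16.1 and 6.16 CPM, mesothelial markers to 7.81 and 1.36 CPM (Wt1 and Lrrn4 at 0 with LPS+LCC-12), and fibroblast markers to 22.2 and 3.68 CPM (Lum and Dpt at 0 in both libraries, Pdgfra at 0 with LPS+LCC-12). Endothelial markers summed to 129 and 62.1 CPM, and to 2.14 and 2.77 CPM without Pecam1. Platelet markers summed to 69.6 and 145 CPM, and to 15.7 and 6.70 CPM without Pf4. Lyz2, Fn1, Pecam1 and Pf4 were singled out after their values were seen, as the gene of each list with the largest difference in CPM. B cell markers summed to 209 and 245 CPM, while the T, NK, dendritic, eosinophil and erythroid lists each stayed at 10.3 CPM or less. The part of these cells in the values below was not tested.

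The proteasome as a whole was close to level between the libraries. Of the 50 members, 49 reached 50 counts in at least 1 library. They summed to 191742 counts after LPS alone and 184773 after LPS+LCC-12, or 3839 and 3820 CPM, for a log2 ratio (LPS+LCC-12 over LPS) of -0.0073 (interval -0.017 to 0.0019). None was at least 2-fold lower and none at least 2-fold higher, where 6.65% and 4.01% of the 13482 genes with 50 or more counts were. At least 1.5-fold lower was 1 member, Psme2b, and at least 1.5-fold higher was 1 member, Psma8, where 13.3% and 9.67% of those genes were. Proteasome genes are well counted, and well-counted genes pass a fold limit less often. Among 6135 protein-coding genes with a mean of 1000 or more counts, 7.73% were at least 1.5-fold lower and 4.82% at least 1.5-fold higher, and 2.85% and 1.76% were past 2-fold. Among all 11220 protein-coding genes with 50 or more counts, the shares were 9.85% lower and 9.35% higher at 1.5-fold and 4.46% and 3.81% at 2-fold. The 5 immunoproteasome and PA28 genes Psmb8, Psmb9, Psmb10, Psme1 and Psme2 had a median log2 ratio of -0.24, and the other 44 genes had a median of 0.02. The median over all 13482 genes was 0.02, and over the 6135 well-counted genes 0.03.

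**Figure D1:**
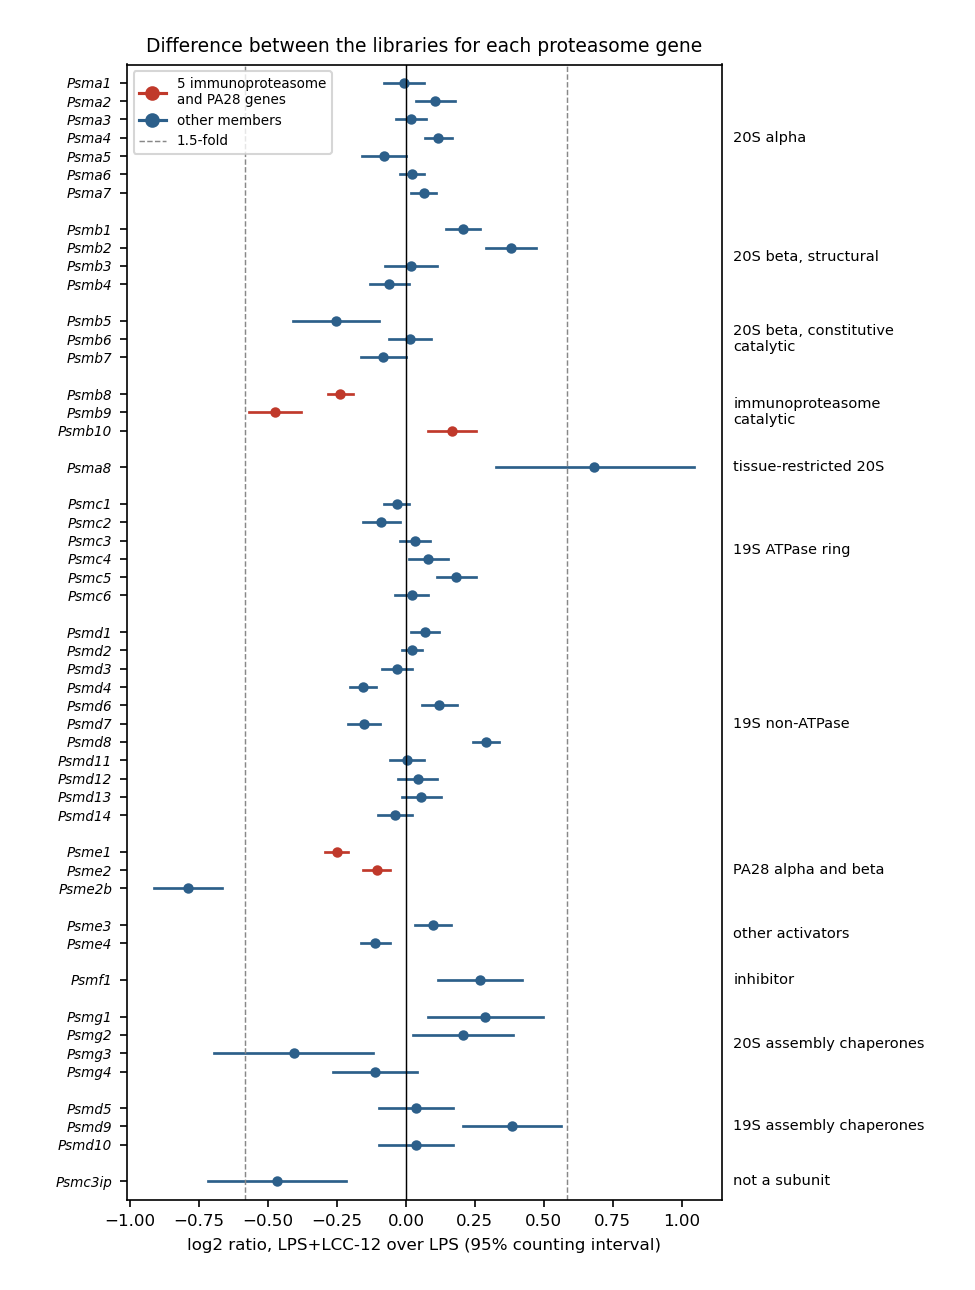
Log2 ratio (LPS+LCC-12 over LPS, horizontal axis) of each of the 49 proteasome genes with 50 or more counts, grouped by role. Bars are 95% counting intervals, dashed lines mark 1.5-fold, and the 5 immunoproteasome and PA28 genes are in red. Most genes lie near 0, and Psme2b and Psma8 are the points past the dashed lines. Among the red points, Psmb8, Psmb9, Psme1 and Psme2 lie to the left and Psmb10 to the right. Blue points also lie to either side, among them Psmc3ip, Psmg3 and Psmb5 to the left and Psmb2, Psmd9 and Psmd8 to the right.

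The immunoproteasome subunits did not move as a block. Psmb8 (beta5i, the counterpart of Psmb5, chromosome 17, 34197721 to 34201454, GRCm38) had 8813 counts after LPS alone and 7239 after LPS+LCC-12, or 176 and 150 CPM, for a log2 ratio of -0.24 (-0.28 to -0.19). Psmb9 (beta1i, the counterpart of Psmb6, chromosome 17, 34181987 to 34187764) had 2180 and 1520 counts, or 43.7 and 31.4 CPM, for a log2 ratio of -0.47 (-0.57 to -0.38). Psmb10 (beta2i, the counterpart of Psmb7, chromosome 8, 105935735 to 105938444) had 2087 and 2270 counts, or 41.8 and 46.9 CPM, for a log2 ratio of 0.17 (0.08 to 0.25). Thus Psmb8 and Psmb9 were lower with LCC-12 and Psmb10 was higher, each by less than 1.5-fold and by more than counting error. The signs were the same under all 5 scalings tried. Passing counting error was common, since the interval lay off 0 for 69.3% of the 13482 genes with 50 or more counts. It lay off 0 for 80.0% of the 6135 well-counted protein-coding genes. The Psmb10 ratio lay inside the interquartile range of those 6135 genes, -0.19 to 0.20. The Psmb8 and Psmb9 ratios lay below that range. Psmb8 and Psmb9 lie 9956 bases apart in the MHC, and Psmb10 lies on another chromosome. Most of the gap is taken by Tap1, a peptide transporter gene, which had 9452 and 5832 counts. Psmb9 shares 212 exon bases with Tap1 on the opposite strand. Whether the deposited counts used strand was not given in the sources used here, so the part of Tap1 reads in the Psmb9 value was not tested.

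The PA28 genes were lower, to different degrees in the deposited counts. Psme1 (PA28 alpha, chromosome 14, 55578123 to 55581529) had 10457 counts after LPS alone and 8506 after LPS+LCC-12, or 209 and 176 CPM, for a log2 ratio of -0.25 (-0.29 to -0.21). Psme2 (PA28 beta, chromosome 14, 55587441 to 55591113), which lies 5911 bases from Psme1, had 7290 and 6559 counts, or 146 and 136 CPM, for a log2 ratio of -0.11 (-0.15 to -0.06). Relative to the counts given to Psme2 alone, Psme1 was lower by a log2 change of -0.15 (-0.21 to -0.08). Psme2b (chromosome 11, 48945354 to 48946190) is a single-exon gene whose transcript matches Psme2 at 99.4% of 794 aligned bases. It had 1493 and 836 counts, or 29.9 and 17.3 CPM, for a log2 ratio of -0.79 (-0.91 to -0.67), the lowest of the 49 members. Counts of such copies are uncertain because reads can be split between them. The summed counts of Psme2 and Psme2b, 8783 and 7395, gave a log2 ratio of -0.20 (-0.25 to -0.16). That interval overlaps the one of Psme1, so the difference between Psme1 and Psme2 depends on how reads were split between the copies. Psme2b also shares 41 exon bases with 9930111J21Rik1 on the same strand, which had 2390 and 1441 counts. The part of that gene in the Psme2b value was not tested.

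The letters before the start sites of these 5 genes are shown because the genes share an interferon background and yet differed in ratio. The sequences run from 250 bases before to 30 bases after the most upstream RefSeq start of each gene (GRCm38.p6, 5′ to 3′ on the gene's strand). Capitals mark matches to the interferon-stimulated response element (GAAA, any 2 bases, GAAA), the gamma-activated site (TTCNNNGAA) or the NF-kB motif (GGG, any 2 bases, TTTCC) on either strand.
Psmb8, chr17:34197945-34198224, plus strand: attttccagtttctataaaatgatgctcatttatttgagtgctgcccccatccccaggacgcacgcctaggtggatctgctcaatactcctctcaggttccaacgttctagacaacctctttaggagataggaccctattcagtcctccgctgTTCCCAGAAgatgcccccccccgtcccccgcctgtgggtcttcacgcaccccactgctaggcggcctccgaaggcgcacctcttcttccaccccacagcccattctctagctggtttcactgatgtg
Psmb9, chr17:34187301-34187580, minus strand: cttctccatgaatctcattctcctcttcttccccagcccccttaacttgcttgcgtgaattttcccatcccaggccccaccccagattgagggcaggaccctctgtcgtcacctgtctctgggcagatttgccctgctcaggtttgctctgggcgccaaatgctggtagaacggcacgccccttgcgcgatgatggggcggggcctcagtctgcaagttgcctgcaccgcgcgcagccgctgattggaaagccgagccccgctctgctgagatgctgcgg
Psmb10, chr8:105938363-105938642, minus strand: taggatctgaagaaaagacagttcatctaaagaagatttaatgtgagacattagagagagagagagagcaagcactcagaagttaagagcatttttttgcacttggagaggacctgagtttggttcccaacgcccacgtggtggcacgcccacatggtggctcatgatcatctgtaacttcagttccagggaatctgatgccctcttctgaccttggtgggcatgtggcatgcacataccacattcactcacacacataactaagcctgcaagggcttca
Psme1, chr14:55578244-55578523, plus strand: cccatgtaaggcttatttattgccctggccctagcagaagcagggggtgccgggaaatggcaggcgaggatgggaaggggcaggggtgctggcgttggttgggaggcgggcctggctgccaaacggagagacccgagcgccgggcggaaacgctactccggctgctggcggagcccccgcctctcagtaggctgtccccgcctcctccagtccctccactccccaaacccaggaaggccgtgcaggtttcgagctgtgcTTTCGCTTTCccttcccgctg
Psme2, chr14:55591072-55591351, minus strand: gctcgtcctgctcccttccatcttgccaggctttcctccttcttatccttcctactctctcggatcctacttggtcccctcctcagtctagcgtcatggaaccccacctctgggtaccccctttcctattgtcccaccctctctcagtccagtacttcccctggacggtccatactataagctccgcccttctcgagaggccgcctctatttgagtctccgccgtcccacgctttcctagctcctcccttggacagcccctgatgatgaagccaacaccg
Psme1 held 1 response element, read on the opposite strand, starting at base 10 after the start. Psmb8 held 1 gamma-activated site starting at base -97, where the search pattern matched on both strands. No searched letters matched in the windows of Psmb9, Psmb10 and Psme2, which says only that those letters are not in these windows. Of all 32851 RefSeq promoter windows of 300 bases, 3.44% held the response element, 8.30% the gamma-activated site and 1.63% the NF-kB motif. Promoters were matched for 42 of the 50 members.

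The constitutive catalytic subunits also differed little. Psmb5, the chymotrypsin-like subunit, had 754 counts after LPS alone and 613 after LPS+LCC-12, for a log2 ratio of -0.25 (-0.41 to -0.10). Psmb6, the caspase-like subunit, had 2842 and 2780 counts, for a log2 ratio of 0.01 (-0.06 to 0.09). Psmb7, the trypsin-like subunit, had 2594 and 2373 counts, for a log2 ratio of -0.08 (-0.16 to -0.0015). Psmb5 was therefore as low with LCC-12 as Psmb8, and the Psmb6 difference was within counting error. Psmb5 has a processed pseudogene, Gm3375, that matches it at 98.9% of 796 bases and had 207 and 209 counts, and the summed counts gave a log2 ratio of -0.18 (-0.32 to -0.04). Psmb7 shares 405 exon bases with Nek6 on the opposite strand, which had 2785 and 1398 counts, and the part of Nek6 reads in the Psmb7 value was not tested.

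Set against the subunit whose place it takes, each immunoproteasome gene behaved differently, and these ratios do not depend on library scaling. The Psmb8 to Psmb5 count ratio was 11.7 after LPS alone and 11.8 after LPS+LCC-12, a log2 change of 0.01 (-0.15 to 0.18), within counting error. The Psmb9 to Psmb6 ratio was 0.767 and 0.547, a log2 change of -0.49 (-0.61 to -0.37). The Psmb10 to Psmb7 ratio was 0.805 and 0.957, a log2 change of 0.25 (0.13 to 0.37). No difference beyond counting error was detectable for the Psmb5 pair, whose interval is the widest of the catalytic pairs, while the immune form was lower relative to Psmb6 and higher relative to Psmb7. With Psmb5 summed with Gm3375, the change for Psmb8 was -0.06, also inside that interval. Psme3, the nuclear PA28 gamma that is not an interferon-induced subunit, had 3731 and 3865 counts, for a log2 ratio of 0.10 (0.03 to 0.16). Relative to Psme3, Psme1 changed by -0.35 (-0.43 to -0.27) and Psme2 by -0.20 (-0.28 to -0.12) on the log2 scale.

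**Figure D2:**
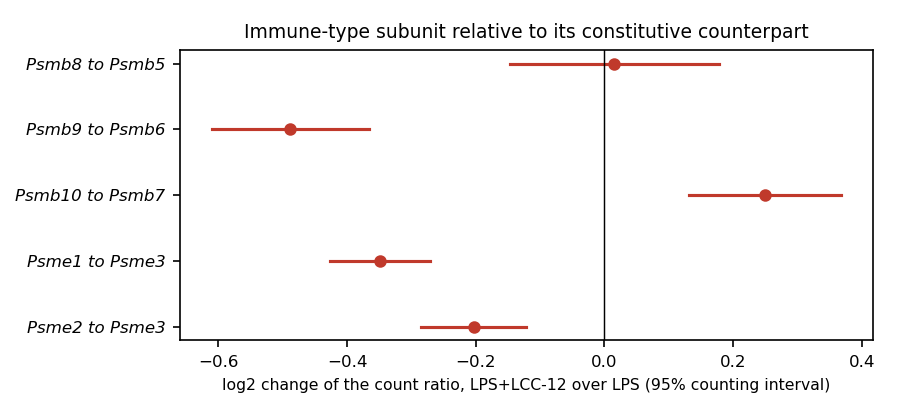
Log2 change (LPS+LCC-12 over LPS, horizontal axis) of the count ratio of an immune-type gene to its constitutive counterpart, with exact 95% counting intervals. Psmb8 to Psmb5 lies on 0, Psmb9 to Psmb6 lies at -0.49 and Psmb10 to Psmb7 at 0.25, and both PA28 genes lie below 0 relative to Psme3.

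Levels between genes were compared per kilobase, and the order of an immune subunit and its counterpart depended on the length used. Per kilobase of merged exons, Psmb8 had 52.2 CPM with LPS and 44.3 with LPS+LCC-12 and Psmb5 had 16.8 and 14.1. Psmb8 made up 75.7% (74.3 to 77.0) of the pair's per-length level with LPS and 75.8% (74.3 to 77.4) with LPS+LCC-12. It was the more abundant of the pair under every length tried, at 86.6% and 86.7% with the principal transcript and 91.8% and 91.9% with the coding length. These shares and intervals use the counts of Psmb5 without its pseudogene Gm3375. The counts of Gm3375 were 27.5% of those of Psmb5 with LPS and 34.1% with LPS+LCC-12, and adding them would lower the Psmb8 share. Psmb9 made up 28.2% (27.1 to 29.3) of its pair with Psmb6 with LPS and 21.9% (20.8 to 22.9) with LPS+LCC-12, and was the less abundant under every length tried, at 31.2% and 24.4% with the principal transcript and 45.5% and 37.3% with the coding length. Psmb10 made up 61.7% (60.4 to 63.1) and 65.7% (64.4 to 67.0) of its pair with Psmb7 over merged exons but 41.6% and 45.8% with the principal transcript, so the order of that pair was not fixed by these data. The share rose for Psmb10 and fell for Psmb9 beyond counting error. The length is the same factor in both libraries, so this direction follows from the count ratios above under any length and is not added support.

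The alpha ring, which gates the core, was nearly level. Its 7 genes had a median log2 ratio of 0.02, from -0.08 for Psma5 to 0.12 for Psma4, and all 7 were within 1.5-fold. Psma6 had the highest level of all members per kilobase of merged exons, with 134.9 CPM with LPS and 137.1 with LPS+LCC-12, from 8316 and 8181 counts, but that place depended on the length used. Per kilobase of the principal transcript, Psma7 was above Psma6 in both libraries and Psme1 was above it with LPS, and per kilobase of coding sequence Psme1 was above it in both. Psma4 had 6598 and 6930 counts, for a log2 ratio of 0.12 (0.07 to 0.17), and Psma7 had 7796 and 7891 counts, 0.06 (0.02 to 0.11). The remaining genes Psma1, Psma2, Psma3 and Psma5 had 2397 to 5551 counts in either library.

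The structural beta subunits, which have no proteolytic site, had a median of 0.11. Psmb2 had 1734 counts after LPS alone and 2187 after LPS+LCC-12, or 34.7 and 45.2 CPM, for a log2 ratio of 0.38 (0.29 to 0.47), the highest of the 31 constitutive 20S and 19S core subunits. Psmb1 had 3900 and 4357 counts, for a log2 ratio of 0.21 (0.14 to 0.27). Psmb3 and Psmb4 had log2 ratios of 0.02 and -0.06, with intervals across 0. The 4 genes thus differed among themselves by more than the alpha ring genes did, although all were within 1.5-fold.

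The 19S cap was as level as the core. The 6 ATPases Psmc1 to Psmc6, which unfold substrates, had a median log2 ratio of 0.03, from -0.09 for Psmc2 to 0.18 for Psmc5, and summed to 28932 and 28398 counts. The 11 non-ATPase subunits taken in by the symbol rule had a median of 0.02 and summed to 61617 and 60675 counts. Psmd8 had 6774 counts after LPS alone and 8023 after LPS+LCC-12, or 136 and 166 CPM, for a log2 ratio of 0.29 (0.24 to 0.34). The genes of the ubiquitin receptor Psmd4 and of Psmd7, the partner of the deubiquitinase Psmd14, were at the low end. Psmd4 had 7444 and 6472 counts, -0.16 (-0.20 to -0.11), and Psmd7 had 5194 and 4524 counts, -0.15 (-0.21 to -0.10). Psmd2, a scaffold of the cap and the member with the most counts, had 11412 and 11221 counts, for a log2 ratio of 0.02 (-0.02 to 0.06). Psmd14 itself had -0.04 (-0.10 to 0.02).

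Over the 31 constitutive core subunits, the interquartile range of log2 ratios ran from -0.04 to 0.07. Over the 6135 well-counted protein-coding genes it ran from -0.19 to 0.20. The counting interval lay wholly below 0 for 5 core subunits and wholly above 0 for 10, 48.4% of them, where it lay off 0 for 80.0% of the well-counted genes. The summed core was 144547 counts after LPS alone and 143285 after LPS+LCC-12, for a log2 ratio of 0.03 (0.02 to 0.04). A shift of that size is smaller than the differences between scalings, which moved the log2 ratio by -0.03 to 0.06 from the TMM value.

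**Figure D3:**
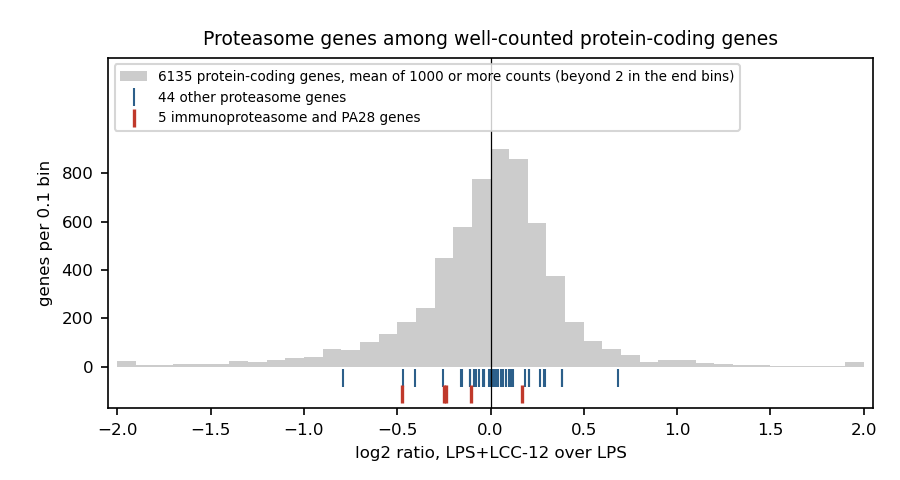
Histogram of log2 ratios (LPS+LCC-12 over LPS) of 6135 protein-coding genes with a mean of 1000 or more counts, with ticks below it for the 44 other proteasome genes (blue) and the 5 immunoproteasome and PA28 genes (red). The blue ticks crowd near 0. Of the 5 red ticks, 4 lie below 0, as do 46.1% of the 6135 genes.

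Genes that assemble or restrain the particle had fewer counts than most core subunits and more scattered ratios. Fewer counts also give wider counting intervals, and the part of counting error in that scatter was not tested. The 7 assembly chaperones had 176 to 929 counts and a median log2 ratio of 0.04. Psmg1 and Psmg2, which pair to build the alpha ring, had 356 and 421 counts and 473 and 529 counts, with log2 ratios of 0.29 (0.08 to 0.50) and 0.21 (0.03 to 0.39). Psmg3 and Psmg4, the other alpha ring chaperone pair, had 241 and 176 counts and 744 and 667 counts, with log2 ratios of -0.41 (-0.70 to -0.12) and -0.11 (-0.26 to 0.04). The members of each chaperone pair thus lay on the same side of 0, the first above and the second below, with Psmg4 within counting error. Among the 19S chaperones, Psmd9 had 466 and 589 counts, for a log2 ratio of 0.38 (0.21 to 0.56), and Psmd5 and Psmd10 each had 0.04 with intervals across 0. Psmf1, the inhibitor PI31, had 656 and 765 counts, for a log2 ratio of 0.27 (0.12 to 0.42). Psme4, the activator PA200, had 5957 and 5344 counts, -0.11 (-0.16 to -0.06).

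Psma8, the alpha subunit known from testis, had 108 counts after LPS alone and 168 after LPS+LCC-12, or 2.16 and 3.47 CPM, for a log2 ratio of 0.68 (0.33 to 1.05). It was the highest ratio among the members, on the second lowest counts, and its interval reached below 1.5-fold. Psmb11, the thymus subunit, had 3 and 0 counts, too few for a fold to be given. Psmc3ip had 324 and 227 counts, for a log2 ratio of -0.47 (-0.72 to -0.22), and shares 385 exon bases with Mlx on the opposite strand, which had 1485 and 1509 counts.

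**Figure D4:**
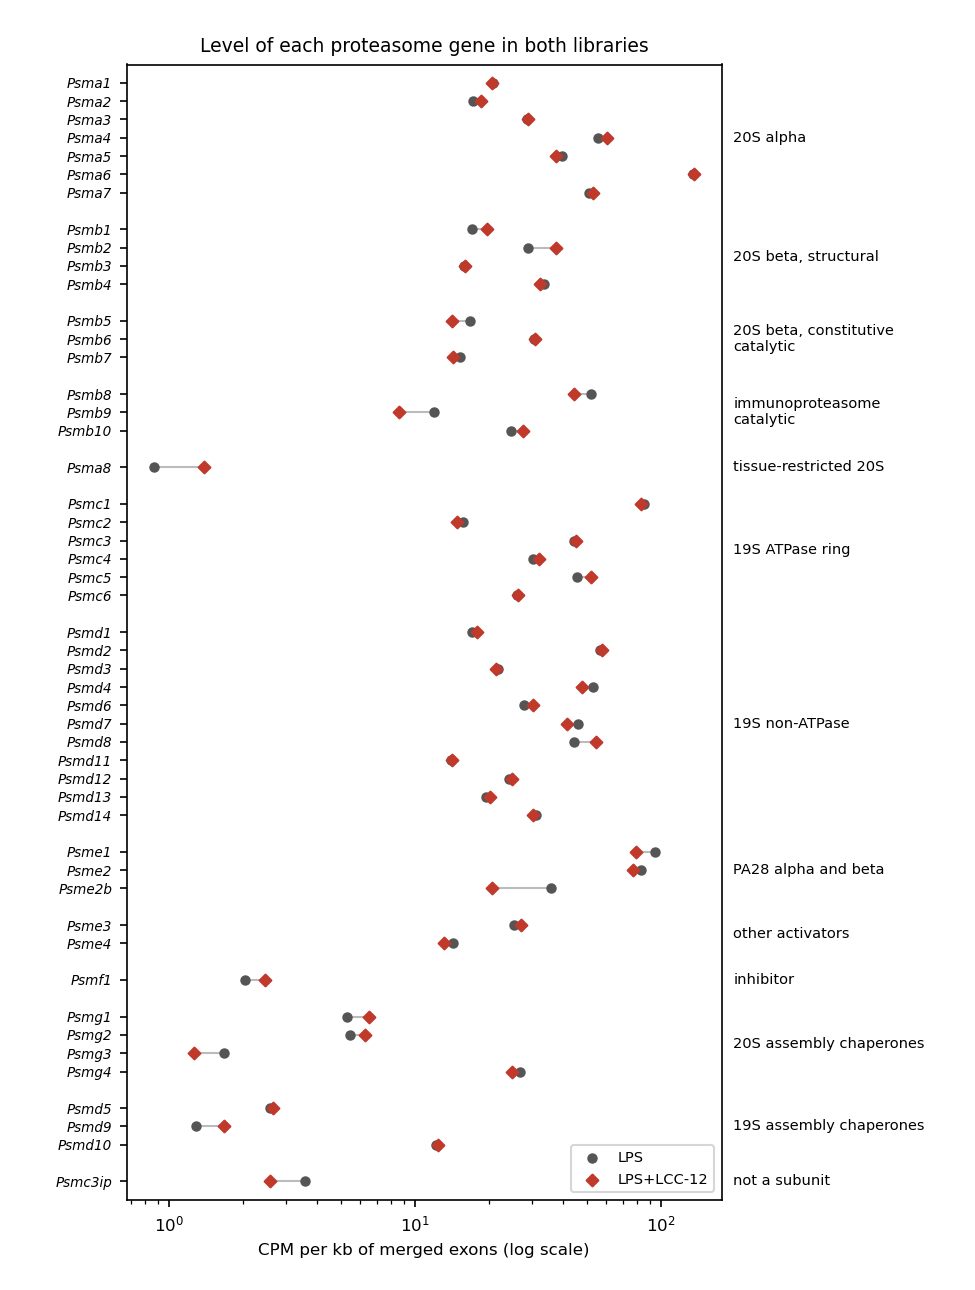
Level of each of the 49 proteasome genes with 50 or more counts in CPM per kilobase of merged exons (log axis), in the LPS library (grey circles) and the LPS+LCC-12 library (red diamonds), grouped by role. Psma6 is highest at 134.9 and 137.1, the chaperones, Psmf1, Psma8 and Psmc3ip lie mostly at the low end, and the symbols of most genes nearly coincide.

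Genes that work around the proteasome were read from 4 lists. The first held 20 genes outside the symbol rule, such as ubiquitin shuttles, deubiquitinases and the cap subunits Adrm1 and Sem1. None of these partners was past 1.5-fold in either direction, and their median log2 ratio was 0.09. Of 24 ubiquitin genes and activating or conjugating enzymes, 1 was at least 1.5-fold lower and none higher, with a median of 0.02. That gene was Ube2l6, the conjugating enzyme of the ubiquitin-like ISG15, with 2490 and 1531 counts (log2 ratio -0.66, -0.75 to -0.56). Of 14 genes of peptide trimming and loading, 2 were at least 1.5-fold lower and none higher, with a median of -0.08. They were Npepps, a cytosolic aminopeptidase, with 12201 and 6252 counts (-0.92, -0.96 to -0.87), and Tap1 (-0.65, -0.70 to -0.60). These shares stand beside the 13.3% of all genes with 50 or more counts that were at least 1.5-fold lower.

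Of 19 transcription factors and other regulators of proteasome genes, 3 were at least 1.5-fold lower and none higher, a share near the 13.3% lower among all genes with 50 or more counts, and the median was -0.18. Stat2 and Irf9, subunits of the factor that type I interferon activates, had log2 ratios of -0.99 (-1.04 to -0.94) and -0.65 (-0.70 to -0.60), with 9839 and 4784 and with 8664 and 5359 counts. Nlrc5, a transactivator of MHC class I and immunoproteasome genes, had 12909 and 7688 counts, for a log2 ratio of -0.70 (-0.74 to -0.66). Irf1, an interferon gamma-induced factor of the immunoproteasome genes, and Nfe2l1, the factor that raises constitutive subunits when proteasomes are blocked, were within 1.5-fold. They were named after their values were seen, and had log2 ratios of -0.24 (-0.28 to -0.19) and -0.10 (-0.13 to -0.06). Stat2, Irf9 and Nlrc5 were thus lower by more than any of the 5 immunoproteasome and PA28 genes, of which Psmb9 at -0.47 was the lowest, and Irf1 was not.

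**Figure D5:**
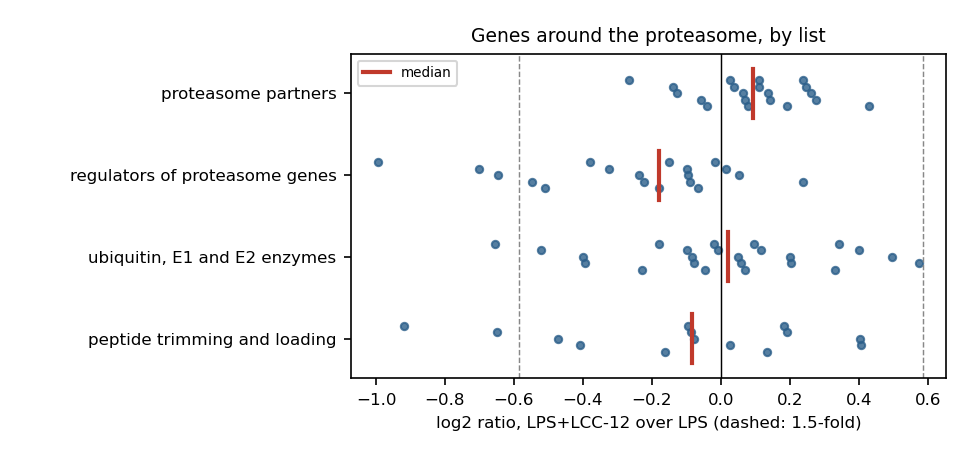
Log2 ratio (LPS+LCC-12 over LPS, horizontal axis) of each gene with 50 or more counts in 4 lists of genes around the proteasome. Dots are genes, red bars are medians and dashed lines mark 1.5-fold. The partners lie within 1.5-fold, and the points past the lower line are Stat2, Nlrc5, Irf9, Ube2l6, Npepps and Tap1.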

How the data were processed

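The table deposited by the authors holds unnormalized whole-number counts of each gene, with a column per library. STAR and the build mm10 are given per the submitters' processing notes. The counting tool, its strand setting and the gene models were not given in the sources used here. Per the labels' protocols, total RNA was made into stranded libraries with ribosomal depletion and 12 PCR cycles, whereas the molecule label names polyA RNA. Gene names, biotypes and exons came from GENCODE M21 on GRCm38 by gene ID, which matched 55394 of 55487 IDs.

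Counts were scaled with edgeR 4.0.16 (TMM), and 0.5 counts were added in proportion to scaled library size. Genes reaching 50 counts in at least 1 library were summarised. With 1 library per group no test was run. Intervals are exact 95% binomial (Clopper-Pearson) intervals of each split of counts, or exact conditional intervals for ratios of ratios. They cover counting error only and take each read as an independent molecule. PCR copies are not independent, so the intervals are too narrow where such copies were counted. Ratios and intervals were tested on simulated independent counts, which hold no PCR copies and cannot show this. Copies were genes outside the member's locus whose transcript matched at 95% or more over 200 bases or more (BLAST 2.17.0). Every member was a named gene, as were, in each list around the proteasome, up to 4 genes past 1.5-fold. Of 205 entries in these and the marker lists, 204 matched a gene. The members and lists were chosen with earlier results of these data known. The alternatives were other scalings, among them DESeq2 1.42.0 size factors, other count minimums, added counts, list means and sums, and lists without single genes.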

Additional observations from a re-analysis of the deposited data

How the results depend on the processing

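Both medians kept their values within the counting interval of the middle gene under total-count, DESeq2 and upper-quartile scaling and with 5 added counts. With totals that leave out the 100 most abundant and the mitochondrial genes, the median log2 ratio of the 5 immunoproteasome and PA28 genes became -0.18 and that of the other genes 0.083. The mean of the 5 genes was -0.18, and their median without Psmb9 was -0.17, which was tried after the data were seen. The difference between the medians, -0.26, ran from -0.27 to -0.19 over its alternatives. A minimum of 1 count gave 1 member at least 2-fold lower and 2 at least 1.5-fold lower, because it admits Psmb11 on its 3 and 0 counts. The number of members at least 1.5-fold higher, 1, became 0 with a minimum of 200 counts or 0 with the whole interval past the fold, and both leave out Psma8. No paired analysis was possible because each group had 1 library, and for the same reason no replicate could be left out. Of the 49 members, 36 had the same sign under all 5 scalings. For the others no direction is read.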

Other observations

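Motifs tied to constitutive proteasome genes were searched in the same promoter windows of 300 bases, on both strands, as values with no test. The letters TGACNNNGC, a core of the antioxidant response element, were found in 6 of 42 member genes with a promoter, among them 4 of 25 constitutive core subunits, and in 12.4% of all 32851 windows. The 6 genes were Psmb5, Psmb6, Psmc6, Psmd12, Psmd9 and Psme4, and were named after their values were seen. Their log2 ratios ran from -0.25 for Psmb5 to 0.38 for Psmd9, on both sides of 0. CCAAT was found in 15 of 42 member genes and in 37.4% of all windows. The gamma-activated site was found in 3 of 42 member genes and in 8.30% of all windows, and the NF-kB motif in 0 of 42 and in 1.63%. The interferon-stimulated response element was found in 5 of 42 member genes and in 3.44% of all windows. Of the member genes with this element, Psme1 alone belongs to the 5 immunoproteasome and PA28 genes. The others were Psmb3, Psmd4, Psmd9 and Psmg4, with log2 ratios of 0.02, -0.16, 0.38 and -0.11.

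Apart from Psme2, Psme2b and Psmb5, 7 members had near-identical copies among the GENCODE M21 transcripts of other genes. For Psma3 the 4 copies held 344 and 254 counts, 6.20% and 4.66% of the gene's own, and for Psmd11 the 2 copies held 207 and 202. With the copies summed in, the log2 ratio of Psma3 was -0.0024 (-0.06 to 0.05) in place of 0.02, and that of Psmd11 was 0.0037 (-0.06 to 0.06). No near-identical copy was found among those transcripts for the other 40 members, and unannotated copies were not searched.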
